A study of Homo sapiens with 8 samples.

Results

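The genes described here encode 9 transcription factors of the myeloid lineage: SPI1 (which encodes PU.1), IRF8, CEBPA, CEBPB, CEBPD, CEBPE, RUNX1, GFI1 and KLF4. They were chosen by gene symbol in the probe annotation supplied with the data. Each had 1 probe set, so they make up 9 of 17687 genes measured under a symbol. Their RNA was measured on 8 arrays of cultured cells, and the values are linear probe set intensities deposited by the authors.

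Granulocytes and monocytes arise from common progenitors under a small set of DNA-binding proteins. PU.1 and the C/EBP factors open and activate the genes of both branches. IRF8 acts with PU.1 and favours monocytes, while C/EBP-epsilon and the repressor GFI1 act in granulocyte maturation. RUNX1, with its partner CBFB, acts earlier, from blood stem cells on, and is frequently mutated or fused in leukaemia. In chronic myeloid leukaemia the fusion kinase BCR-ABL1 drives growth, and the disease can pass from a phase with maturing granulocytes into a blast crisis with few mature cells. Low IRF8 and reduced C/EBP-alpha are known features of that disease.

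K562 and KBM5 are human lines from chronic myeloid leukaemia. Each line had a control array (no exposure), an OR21 array (100 nM for 3 days), an IM array (imatinib, an inhibitor of BCR-ABL1, 1000 nM for 24 hours) and an array of the combination (OR21 first, then IM). OR21 is OR-2100, called a demethylating agent in the series title, and the OR21 dose of the combination was taken from the treatment protocol because its label leaves it out. Every line and treatment had 1 array, so repeats of a condition cannot be compared and precision is limited by how few arrays there are. Tests therefore used limma. Within a line, the repeats were the 2 array pairs of a drug, in absence and in presence of the other drug. For treatment comparisons over both lines, the repeats were the 2 lines. For KBM5 against K562, the repeats were the 4 treatment pairs, so the arrays of a line were not replicates of 1 condition. The tests within a line came from 1 fit over both lines, and its error was moderated towards that of all genes. A gene's standard error was therefore the same in both lines (0.26 for SPI1 with IM). A call in 1 line thus does not rest on the agreement of that line's 2 pairs alone. A gene was called at a Benjamini-Hochberg adjusted p under 0.05 over all genes, and its p-value measures only the moderated spread between these samples. Nothing in the labels says that the cultures were separate experiments.

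An array's background was set where 95% of its 612 negative control probe sets lay below, and it was between 161 and 263. Where a gene was above it on no array of a side, the fold is a lower bound, written "at least", and where both sides were below it no fold is stated. The lines were checked against marker lists. Of 6 erythroid markers, 4 to 6 were above background on K562 arrays and 1, the transferrin receptor gene TFRC, on KBM5 arrays. Their summed intensity in K562 was 92636 in the control and 718838 with the combination. Of 7 T and B cell markers, 0 or 1 were above background on any array. Of 7 epithelial and fibroblast markers, 3 were above background on each K562 array, among them EPCAM (7907 to 10797), against 0 or 1 on each KBM5 array.

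RefSeq start sites were found for 7 of the 9 genes in the table of promoter windows used (GRCh38.p14), with 11 windows in all. Because OR21 is described as a demethylating agent, the number of CpG dinucleotides, the sites of DNA methylation, was counted in the 250 bases before each start. The windows of the genes that turned out to mark the extremes are printed 5′ to 3′ with each CpG in capitals. CEBPA stands for the CpG-rich windows, and CEBPE and IRF8 for the CpG-poor ones and for the only calls with OR21, although the IRF8 windows are not at the first base of the annotated gene.
CEBPA, chr19:33302535-33302784, minus strand: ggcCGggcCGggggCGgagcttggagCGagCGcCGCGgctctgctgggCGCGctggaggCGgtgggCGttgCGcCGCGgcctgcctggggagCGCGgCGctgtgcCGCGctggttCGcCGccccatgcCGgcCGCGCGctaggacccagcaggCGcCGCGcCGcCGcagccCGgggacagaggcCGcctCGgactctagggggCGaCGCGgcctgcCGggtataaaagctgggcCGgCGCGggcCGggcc
CEBPE, chr14:23119256-23119505, minus strand: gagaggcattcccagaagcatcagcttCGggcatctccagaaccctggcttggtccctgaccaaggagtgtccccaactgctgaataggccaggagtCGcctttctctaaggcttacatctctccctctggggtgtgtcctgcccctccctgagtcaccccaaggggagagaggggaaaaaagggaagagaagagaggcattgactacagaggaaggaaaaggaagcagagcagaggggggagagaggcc
IRF8, chr16:85902580-85902829, plus strand: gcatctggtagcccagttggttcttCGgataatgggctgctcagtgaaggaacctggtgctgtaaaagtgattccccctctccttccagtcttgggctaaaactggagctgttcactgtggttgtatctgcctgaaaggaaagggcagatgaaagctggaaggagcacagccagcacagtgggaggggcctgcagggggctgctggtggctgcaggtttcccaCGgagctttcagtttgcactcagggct
The CEBPA window held 41 CpG, and 1.73% of the 35116 windows of all genes held as many or more. The CEBPE window and the printed IRF8 window held 2 CpG each, and 22.9% of all windows held as few or fewer. The other IRF8 window held 4 CpG. Both IRF8 windows lie inside the annotated gene (85899162 to 85922609 on chromosome 16), so the bases before its first annotated base were not counted. The RUNX1 window (from 34888700) likewise lies inside its gene (34787801 to 35049302 on chromosome 21). The windows of GFI1 held 16, 17 and 19 CpG, those of CEBPB 25 and 38, KLF4 25 and RUNX1 32, against a median of 11 over all windows. Methylation itself was not measured.

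**Figure D1:**
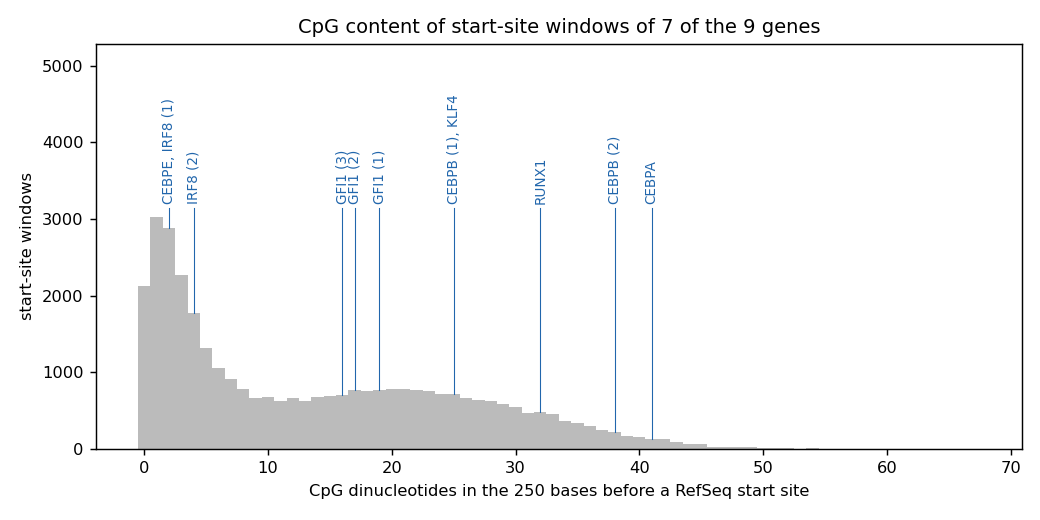
The number of CpG dinucleotides (x axis) in the 250 bases before RefSeq start sites, with the number of windows on the y axis over all 35116 windows, and lines at the 11 windows of 7 genes (numbers in brackets separate windows of the same gene). The CEBPE window and the 2 IRF8 windows, which lie inside the annotated gene, sit at 2 to 4 CpG, and the CEBPA window at 41.

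Short binding motifs were searched on both strands of the same windows, counting overlapping matches. GAGGAA, a core of PU.1 sites, had 1 match in the windows of CEBPE, KLF4, RUNX1 and the third window of GFI1, and 23.6% of all windows held it. TGTGGT, a RUNX site, had 1 match in the printed IRF8 window and 1 in the second GFI1 window, against 11.0% of all windows. TTGCNNAA, a form of the C/EBP site, matched only in the second GFI1 window among these 11, as TTGCGCAA, and 9.05% of all windows held a match. The matches in IRF8, RUNX1 and GFI1 were all in windows that lie inside the annotated gene. The motif counts are matches of letters, and binding was not measured.

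Most of the myeloid factors were higher in KBM5. Of the 9 genes, 5 were above background on all 4 KBM5 arrays (SPI1, IRF8, CEBPA, GFI1 and RUNX1) and 2 on all 4 K562 arrays (GFI1 and RUNX1). Of all 17687 genes, 5247 were above background on all 4 KBM5 arrays and 6190 on all 4 K562 arrays. In K562, 5 of the 9 were below background on every array (IRF8, CEBPA, CEBPD, CEBPE and KLF4). Only 37.7% to 40.0% of all genes were above background on a K562 array, so lying below it there is common. Over the 4 treatment pairs, 7 of 9 genes were called higher in KBM5 and none lower, where 15.0% of all genes were called higher and 17.0% lower (32.0% in either direction). The median log2 difference of the 9 was 2.30, against 0.04 over all genes. Of the 7, CEBPD and CEBPE were above background on 1 of 4 KBM5 arrays each and on no K562 array, so they have no fold.

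**Figure D2:**
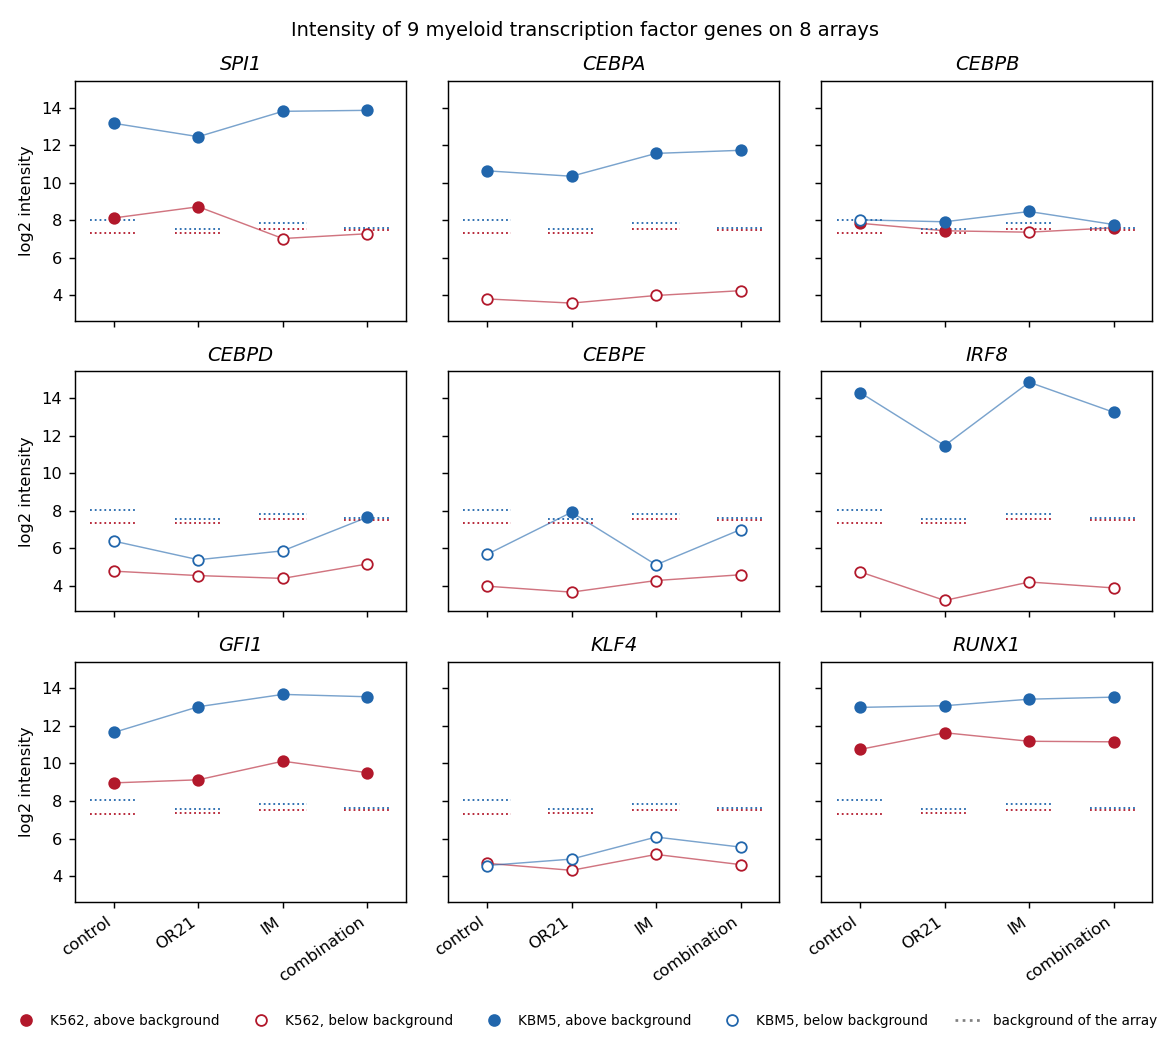
Log2 intensity (y axis) of each gene on each of the 8 arrays, by treatment (x axis) and line, with filled points above and open points below the array's background (dotted). Lines join the arrays of a cell line only to guide the eye. SPI1, CEBPA, IRF8, GFI1 and RUNX1 are higher in KBM5 on every treatment, and KLF4 is below background on all 8 arrays.

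IRF8, the interferon regulatory factor of monocytes and dendritic cells, had the widest gap. Its intensity in KBM5 was 19984 in the control, 2834 with OR21, 29304 with IM and 9677 with the combination, and in K562 it lay between 9.31 and 26.7. The lines did not overlap, and IRF8 was at least 65.3-fold higher in KBM5 (limma adjusted p = 8.6e-06). CEBPA, the factor that commits progenitors to the granulocyte branch, had intensities of 1593, 1305, 3033 and 3397 in KBM5 (control, OR21, IM and combination, the order used from here on). In K562 it lay between 12.1 and 19.1, below background throughout, and it was at least 12.5-fold higher in KBM5 (adjusted p = 3.76e-06).

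SPI1 had intensities of 9209, 5619, 14331 and 14862 in KBM5. In K562 its intensities were 279.7, 423, 131 and 156, of which the last pair, both with IM, were below background. The log2 difference was 5.53 ± 0.50 (SE, limma adjusted p = 0.00029), a size that is not exact because K562 was above background on 2 of 4 arrays. With a background at the 99th percentile of the control probe sets, SPI1 was above it on 4 arrays, all of KBM5, and on none of K562.

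GFI1 and RUNX1 were above background on all arrays of both lines. At the 99th percentile background, RUNX1 was still above it on 8 of 8 arrays and GFI1 on 4, all of KBM5. IRF8 was likewise above it on 4 arrays, but CEBPA on 3, as its KBM5 OR21 array (1305) lay below 1853. GFI1, a zinc finger repressor needed for neutrophils, had 499.7, 560.0, 1113 and 727 in K562 and 3216, 8304, 13099.9 and 12002 in KBM5. The lines did not overlap, with an 11.7-fold difference (log2 3.54 ± 0.26, adjusted p = 0.000114). RUNX1 had 1720.1, 3179.6, 2321 and 2274 in K562 and 8109, 8626, 10974 and 11843 in KBM5. The KBM5 arrays were again all higher, by 4.21-fold (log2 2.07 ± 0.21, adjusted p = 0.000512), the smallest called line difference of the 5 well-detected genes. Its 1 probe set does not tell apart the RUNX1 transcripts from separate start sites.

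The other C/EBP genes and KLF4 were at or near background. CEBPB, a factor of macrophages and emergency granulopoiesis, had 229.8, 174, 165 and 195 in K562 and 261, 243, 355 and 219 in KBM5, above background on 6 of 8 arrays. The lines overlapped and were not called different (log2 0.48 ± 0.22, limma adjusted p = 0.143). CEBPD, an inducible relative, had 83.3, 41.9, 58.2 and 201 in KBM5, with only the combination above background, and 21.0 to 35.8 in K562. CEBPE, the factor of late granulocytes, had 51.0, 241, 34.7 and 127 in KBM5, with only OR21 above background, and 12.7 to 24.0 in K562. KLF4, a zinc finger factor of monocytes, lay between 19.8 and 67.7 and was below background on all 8 arrays.

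IM raised 4 of the well-detected factors in KBM5: SPI1, CEBPA, IRF8 and GFI1. Limma called 5 of the 9 genes higher and none lower there, where 10.8% of all genes were called higher and 10.6% lower (21.4% in either direction). The median of the 9 was 1.02 on the log2 scale, against 0.03 over all genes. The fifth call, KLF4, was below background on all arrays (23.7, 30.0, 67.7 and 46.7), so it gives no level and no fold.

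CEBPA rose with IM in KBM5 from 1593 to 3033 without OR21 and from 1305 to 3397 with it. Both IM arrays were above both arrays without IM, and the mean rise was 2.23-fold (log2 1.15 ± 0.25, limma adjusted p = 0.00766). SPI1 rose by 0.64 without OR21 and 1.40 with it, 2.03-fold in the mean (log2 1.02 ± 0.26, adjusted p = 0.0185). Its IM and combination arrays differed by 0.05 on the log2 scale, less than the standard error. GFI1 rose by 2.03 without OR21 and by 0.53 with it (mean 1.28 ± 0.35, adjusted p = 0.0238). IRF8 rose by 0.55 and 1.77 (mean 1.16 ± 0.35, adjusted p = 0.0385), and its level with the combination stayed below that of the untreated control.

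On the KBM5 arrays the summed intensity of the 6 erythroid markers, of which only TFRC was above background, was 19758 and 19920 without IM (control and OR21) and 2315 and 1703 with it, and its part in these rises was not tested. The calls rest on few arrays. Without the KBM5 OR21 array or the KBM5 combination array, SPI1 (0.64, adjusted p = 0.211), CEBPA (0.93, 0.0768) and IRF8 (0.55, 0.409) were no longer called. Without the KBM5 control or IM array, GFI1 (0.53, 0.378) and KLF4 (0.64, 0.215) lost their call. RUNX1, with 0.44 and 0.46 in the pairs, was higher with IM in both but was not called (limma adjusted p = 0.307), nor was CEBPB (0.15 ± 0.27). CEBPD (0.87 ± 0.51) was not called either, but without the KBM5 control or IM array it had 2.26 and was (adjusted p = 0.00251), as was its difference between the lines (2.15, 0.0163). CEBPE had -0.74 ± 0.25 (limma adjusted p = 0.0666) with 1 of its 4 KBM5 arrays above background, and after quantile normalization it was called lower (-0.84, 0.0364).

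In K562, IM lowered SPI1, the only call among the 9 genes, where 8.05% of all genes were called lower and 5.34% higher (13.4% in either direction). SPI1 fell from 279.7 to 131 without OR21 and from 423 to 156 with it, ending below background, and was at least 1.87-fold lower (limma log2 difference -1.27 ± 0.26, adjusted p = 0.0107). Both arrays with IM were below both arrays without it. The call was lost without the K562 control or IM array (-1.44, adjusted p = 0.114) and likewise when the OR21 or combination array of K562 was dropped (-1.10, 0.211). The 6 erythroid markers had a summed intensity of 92636 and 250688 on the K562 arrays without IM and 667036 and 718838 with it, and their part in the fall of SPI1 was not tested. GFI1 was higher with IM in both K562 pairs (1.16 and 0.38) but was not called (adjusted p = 0.192). RUNX1 had 0.43 and -0.48 in the pairs.

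SPI1 responded to IM in opposite directions in the lines. The difference, KBM5 minus K562, was 2.29 ± 0.37 on the log2 scale (limma adjusted p = 0.00373), and it was called with each of the 8 arrays left out in turn (1.90 to 2.67). CEBPE also had a called difference (-1.35 ± 0.36, adjusted p = 0.0404), but it was below background on all 4 K562 arrays and 3 of 4 KBM5 arrays. The call of CEBPE was lost without any K562 array and without the KBM5 OR21 or combination array (adjusted p 0.0951 to 0.313). Of all genes 10.2% were called for this difference, 5.25% higher and 4.90% lower in KBM5. CEBPA (0.73 ± 0.35, adjusted p = 0.251), IRF8 (1.10 ± 0.50, 0.219), GFI1 (0.51 ± 0.49, 0.610) and RUNX1 (0.47 ± 0.38, 0.527) had positive values that were not called. With values below background set to it, CEBPA (0.97, 0.00075) and IRF8 (0.98, 0.00067) were called. Over both lines, no member passed for the IM effect in limma (3 had an unadjusted p under 0.05), where 7.63% of all genes were called, 2.75% higher and 4.87% lower. GFI1 came nearest (1.02 ± 0.26, adjusted p = 0.0622, higher in 4 of 4 pairs).

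**Figure D3:**
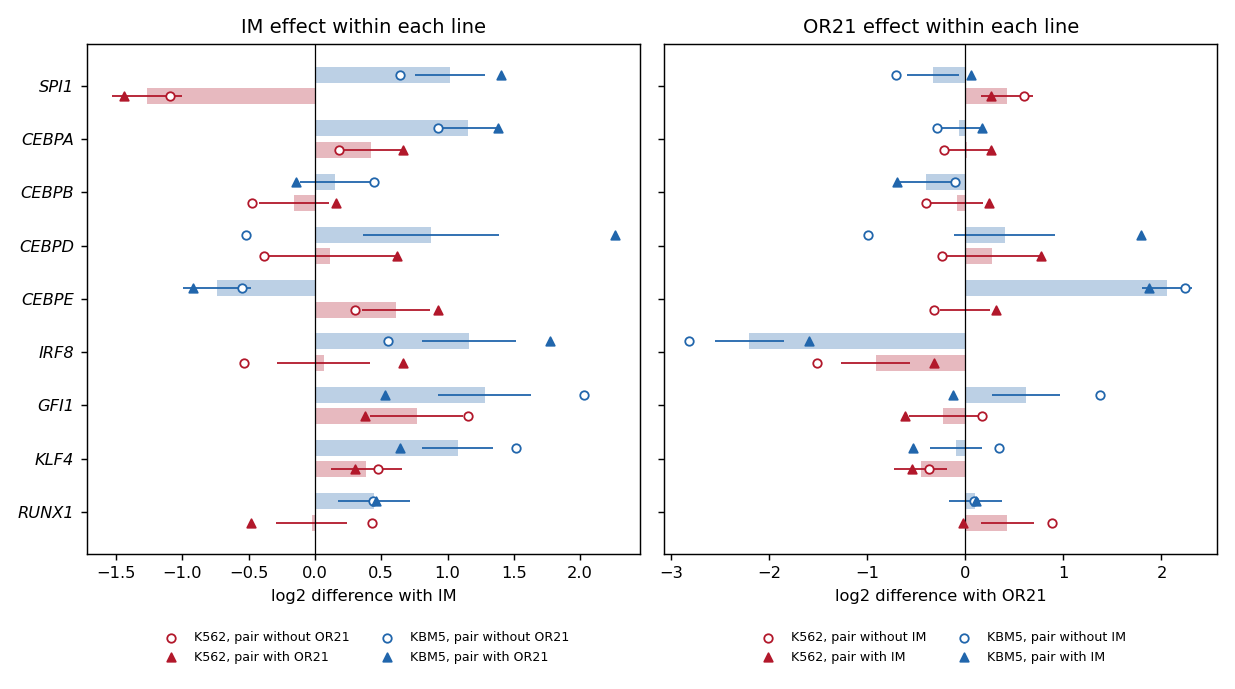
Log2 difference (x axis) of each gene with IM (left) and with OR21 (right) in each line. Bars are the mean of the 2 array pairs with the standard error of the limma fit, and symbols the pairs. SPI1 with IM is below 0 in both K562 pairs and above 0 in both KBM5 pairs, and IRF8 with OR21 is at -2.82 and -1.60 in KBM5.

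OR21 lowered IRF8 in KBM5. The fall was from 19984 to 2834 without IM and from 29304 to 9677 with it, and both OR21 arrays were below both arrays without OR21. The mean fall was 4.62-fold (limma log2 difference -2.21 ± 0.35, adjusted p = 0.0265), in a comparison where 0.0565% of all genes were called lower and 0.486% higher (0.543% in either direction). It was not called without the KBM5 control or OR21 array (-1.60, adjusted p = 0.0932) or with log2(value + 16) (-2.20, 0.0885). In RNA from a whole culture, fewer cells with IRF8 and less IRF8 RNA per cell cannot be told apart.

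CEBPE was the other call with OR21 in KBM5, with log2 differences of 2.24 and 1.88 in the pairs (2.06 ± 0.25, limma adjusted p = 0.00832). Its intensity went from 51.0 to 241 without IM, the only value above background, and from 34.7 to 127 with IM, below it. No fold is therefore given, and with values below background set to it the difference was -0.18 (adjusted p = 0.36). The difference was called with each array left out in turn, and not with log2(value + 16) (1.72, adjusted p = 0.0792). GFI1 went from 3216 to 8304 with OR21 alone and from 13099.9 to 12002 when IM was present (mean 0.62 ± 0.35, adjusted p = 0.498). SPI1 went from 9209 to 5619 and from 14331 to 14862 (-0.33 ± 0.26, adjusted p = 0.656). CEBPA (-0.06 ± 0.25) and RUNX1 (0.10 ± 0.27) had small differences that were not called.

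In K562, limma called none of the 9 genes with OR21, where 0.0905% of all genes were called, all higher, and 1 of them, IRF8, had an unadjusted p under 0.05 while below background on every array. RUNX1 was 1720.1 in the control and 3179.6 with OR21, a log2 difference of 0.89, but -0.03 in the pair with IM. The differences between lines in the OR21 effect were not called for any of the 9 in limma (2 had an unadjusted p under 0.05), with IRF8 at -1.29 ± 0.50 (adjusted p = 0.586) and CEBPE at 2.06 ± 0.36 (adjusted p = 0.111), where 0.102% of all genes were called, 0.0452% higher and 0.0565% lower. Since IRF8 was below background in K562, that line could not show a fall of it.

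The combination was compared with the control because the series set out to find expression particular to it. No member was called over both lines in limma (2 had an unadjusted p under 0.05), where 0.198% of all genes were called, 0.0622% higher and 0.136% lower. In KBM5 alone, with 1 array a side and no test, the combination stood above the control for SPI1 (log2 0.69), CEBPA (1.09), GFI1 (1.90) and RUNX1 (0.55), and below it for IRF8 (-1.05). The IRF8 intensity of the combination lay between those of OR21 and of the control, and that of GFI1 lay between OR21 and IM. For the departure of the combination from the sum of both drugs, limma called 0% of all genes and 274 had an unadjusted p under 0.05, among them 1 of the 9, CEBPD (1.89 ± 0.55). CEBPD was 201 with the combination in KBM5, just over the background of 194 of that array.

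The list of 32 target genes of PU.1 and C/EBP factors, with 28 measured, was higher in KBM5 for most of its measured genes. Of the 28, limma called 19 higher in KBM5 and 0 lower, where 15.0% of all genes were called higher and 17.0% lower. Of the 19, 1 was below background on both sides. The median log2 difference was 3.38 against 0.04 over all genes. The granule protein genes AZU1, PRTN3 and CTSG were at least 237-fold, 166-fold and 59.3-fold higher in KBM5, and the oxidase subunit gene NCF1 at least 58.3-fold. NCF1 has near-identical pseudogenes that its probe set may also detect. In K562, 23 of the 28 were below background on all arrays, where 37.7% to 40.0% of all genes were above it on an array. The exceptions on all 4 K562 arrays were LYZ, which encodes lysozyme (1388 to 2431), CYBA (2705 to 3638), BTK (1076 to 1421) and CD68 (225 to 1048). TYROBP was above background on 2 of them.

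With IM in KBM5, 14 of the 28 targets were called higher and 1 lower. Of all genes, 10.8% were called higher there and 10.6% lower. Of the target calls, 2 were below background on both sides, and the median was 0.73 against 0.03 over all genes. CSF1R, the receptor of the macrophage growth factor, was at least 6.52-fold higher with IM, from 42.7 and 63.6 to 2101 and 1005. CSF3R, the receptor of the granulocyte growth factor, rose by 3.49 ± 0.27 on the log2 scale, above background on 1 of 2 arrays without IM. LYZ rose by 3.47 ± 0.37 (limma adjusted p = 0.000105), from 12342 and 31218 to 254951 and 185905. S100A8, a calcium-binding protein gene of neutrophils and monocytes, was above background only with the combination (270.2) and has no fold. The granule protein genes did not all rise with IM. MPO went from 65.8 to 35.9 without OR21, both below background, and from 11442 to 5282 with it. PRTN3 was also lower in both pairs (25245 to 21917 and 44586 to 27502). AZU1 was higher in both (17749 to 49482 and 38589 to 82396), and CTSG was lower without OR21 and higher with it. In K562, IM raised 1 of the 28 (LTF, below background) and lowered 1, the macrophage gene CD68 (-1.45 ± 0.33). Of all genes, 5.34% were called higher in that comparison and 8.05% lower.

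With OR21 in KBM5, 4 of the 28 targets were called higher and 0 lower, beside the fall of IRF8. Of all genes, 0.486% were called higher there and 0.0565% lower. MPO, the myeloperoxidase gene of early granulocytes, went from 65.8 to 11442 without IM and from 35.9 to 5282 with it, at least 31.7-fold higher (limma adjusted p = 1.15e-06). CTSG, which encodes cathepsin G, rose by 2.40 ± 0.37, the Fc receptor gene FCGR1A by 1.88 ± 0.29 and the signalling adaptor gene TYROBP by 1.62 ± 0.28. TYROBP was 4938 in the control, 21408 with OR21, 48514 with IM and 106081 with the combination. In K562, 0 of the 28 were called with OR21, where 0.0905% of all genes were, and 6 had an unadjusted p under 0.05.

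**Figure D4:**
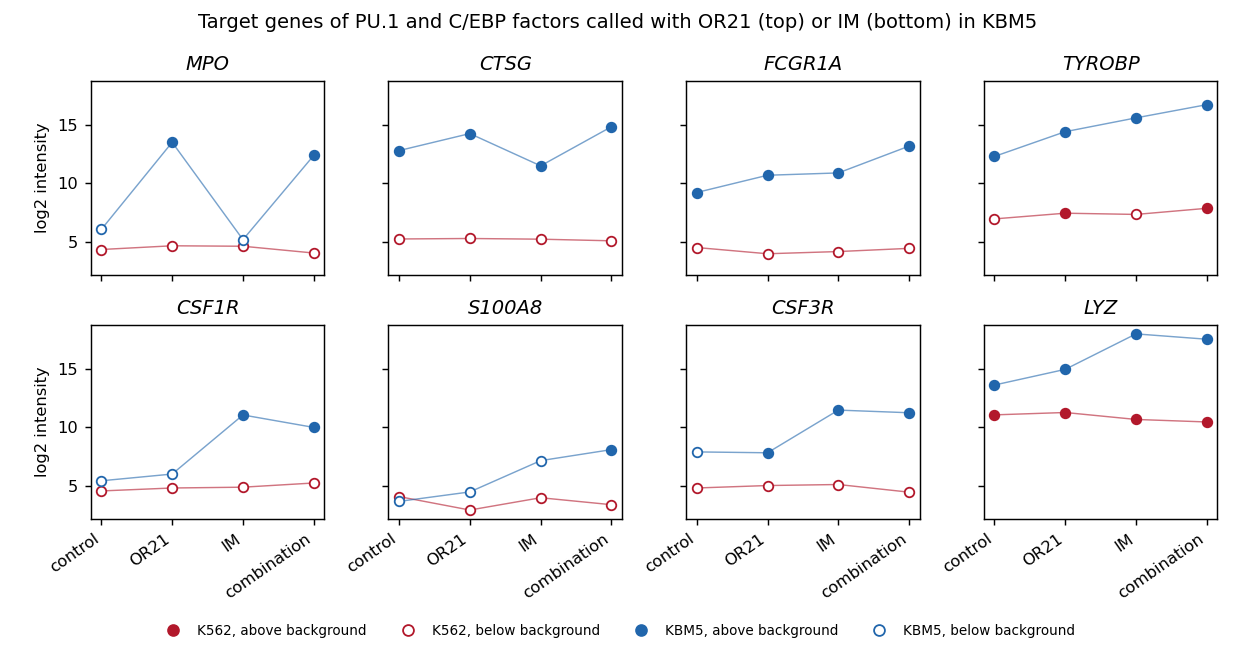
Log2 intensity (y axis) of 8 target genes by treatment (x axis) and line, with filled points above and open points below background, and lines only to guide the eye. The upper row holds the 4 targets called with OR21 in KBM5 and the lower row the 4 largest called rises with IM there. MPO is above background only on the KBM5 arrays with OR21 (11442 and 5282), and CSF1R only on the KBM5 arrays with IM.

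Among partners of RUNX1 and relatives of PU.1 in the ETS family, 7 of 13 were called higher in KBM5, where 15.0% of all genes were, and 0 lower, and 1 of the 7 was below background on both sides. FLI1, an ETS factor of megakaryocytes and stem cells, was at least 19.6-fold higher there, and RUNX2 at least 28.7-fold. With IM in KBM5, 10.8% of all genes were called higher and 10.6% lower. Of the 13, 4 rose there: RUNX2 (2.51 ± 0.25), ETS2 (2.26 ± 0.23), ELF1 (1.43 ± 0.27) and FLI1 (1.08 ± 0.23). In K562, 8.05% of all genes were called lower with IM and 5.34% higher. Of the 13, IM lowered 3 in K562, ETS2 (-1.89 ± 0.23), CBFB (-1.44 ± 0.24) and ETV6 (-1.12 ± 0.24, with 1 IM array above background). Its 1 rise, ETS1, was below background. ETS2 was thus higher with IM in both KBM5 pairs and lower in both K562 pairs, as SPI1 was. CBFB, the partner subunit of RUNX1, had 9833, 5724, 3094 and 2466 in K562.

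The regulators of the erythroid, megakaryocytic and progenitor states were split between the lines, with 6 of 14 called lower and 3 higher in KBM5. Of all genes, 17.0% were called lower and 15.0% higher. BCL11A was among the 3, at least 17.4-fold higher in KBM5. GATA1, the erythroid factor that antagonises PU.1, was at least 56.2-fold lower in KBM5, and GFI1B, the erythroid paralog of GFI1, at least 58.5-fold lower. GFI1B in K562 was 6001, 10940.0, 18498 and 21270.1. With IM in K562, 4 of 14 rose and 4 fell, where 5.34% of all genes were called higher and 8.05% lower. Among the 14 were TAL1 (1.89 ± 0.30), HHEX (-3.11 ± 0.23), MYB (-1.99 ± 0.24) and GATA2, at least 6.75-fold lower. With IM in KBM5, 1 of the 14 rose and 1 fell, where 10.8% of all genes were called higher and 10.6% lower. Neither share was above that of all genes. The rise was NFE2 (2.08 ± 0.28, with 1 of its 2 arrays lacking IM above background). The fall was GATA2 (-1.79 ± 0.30, with 1 array of each side above background). With OR21 in KBM5, 1 of the 14 was called higher and 0 lower, where 0.486% of all genes were called higher and 0.0565% lower. That gene was GATA2, at least 4.07-fold higher, from 196 and 75.7 to 2154 and 464.

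Other members of the IRF family and other monocyte factors rose with IM in KBM5. There 10.8% of all genes were called higher and 10.6% lower. Of 7 IRF genes 5 were called higher, 1 of them below background on both sides, and 0 lower, including IRF9 (at least 3.13-fold), IRF2 (1.88 ± 0.24), IRF5 (at least 1.51-fold) and IRF1 (at least 2.16-fold). Of 16 monocyte and macrophage factors 9 were called higher, again with 1 below background on both sides, and 0 lower, including TFEC (3.45 ± 0.23), ZEB2 (2.20 ± 0.24), BCL6 (at least 4.46-fold) and FOS (at least 1.70-fold). In K562 the same 16 gave 0 rises and 2 falls, EGR1 (at least 34.2-fold lower) and JUN, above background on 1 of 2 arrays without IM. Of all genes, 5.34% were called higher with IM in K562 and 8.05% lower. Limma called 9 of the 16 for the difference between the lines, all towards KBM5, where 5.25% of all genes were called higher and 4.90% lower. With OR21 in KBM5, limma called 0 of the 7 IRF genes (0 had an unadjusted p under 0.05) and 0 of the 16 (3 had one). It called 0.543% of all genes there.

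Of 11 relatives and regulators of the C/EBP factors, 3 were called higher and 2 lower in KBM5 than in K562, where 15.0% of all genes were called higher and 17.0% lower, so the share called lower was near that of all genes. TRIB2, which targets C/EBP-alpha for degradation, was at least 3.29-fold lower in KBM5, where it was below background. CEBPG, a C/EBP relative without an activation domain, was higher by 2.24 ± 0.38. With IM over both lines, 0 of the 11 were called higher and 2 lower (2.75% and 4.87% of all genes). They were CEBPZ (-0.86 ± 0.17, limma adjusted p = 0.0339), above background on 8 arrays, and ID1. ID1, an inhibitor of helix-loop-helix factors, was lower in 4 of 4 pairs. It was at least 5.99-fold lower in K562, and in KBM5 it had -1.88 ± 0.24 (limma adjusted p = 0.000297) with 1 of 4 arrays above background. In K562, 0 of the 11 were called higher with IM and 2 lower (5.34% and 8.05% of all genes). In KBM5 these were 2 and 3 (10.8% and 10.6% of all genes), and ID2, a relative of ID1, rose there by 2.72 ± 0.45. Of 5 measured corepressors of GFI1, IM lowered 1 and raised 0 in each line. These were HDAC2 in KBM5 (-1.11 ± 0.24), where 10.6% of all genes were called lower, and RCOR1 in K562, where 8.05% were. RCOR1 had -0.89 ± 0.24 and was above background on 1 of 2 arrays with IM. A single call among 5 genes cannot be told apart from these shares. Between the lines, EHMT2 was called higher (1.43 ± 0.17) and HDAC2 lower (-0.88 ± 0.26) in KBM5, where 15.0% of all genes were called higher and 17.0% lower. The demethylase gene KDM1A was not analysed here.

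The genes whose pattern was most like each factor were sought after the mean of each line was removed, among the genes above background on at least 4 arrays. Pearson correlations over these 8 arrays are given as descriptions, since the top of 7098 genes must be high. SPI1 was closest to EAF1 (r = 0.98), MRPL33 (0.97) and CDC14A (0.96), and IRF8 to DPYSL2 (0.96), MBTD1 (0.94) and SPNS3 (0.94). DPYSL2, like IRF8, was lower with OR21 in KBM5 (1475 to 528 without IM and 2130 to 936 with it). CEBPA was closest to ZNF383, CHMP1B and WBP1L (0.99 each), GFI1 to ATP6AP1 (0.99), NCSTN (0.97) and ZNF700 (0.97), RUNX1 to KLHL15 (0.93), WBP2 (0.91) and ERCC1 (0.90), and CEBPB to MAPKAPK5 (0.97), MIS12 (0.95) and PIP4K2B (0.95). Among the factors themselves the highest correlations were CEBPA with GFI1 (0.64) and CEBPB with IRF8 (0.64), and IRF8 with GFI1 was at -0.06. For CEBPA and IRF8 the points of K562 lay below background.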

How the data were processed

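Total RNA of 8 cultures was extracted, labelled with biotin and measured on arrays, per the labels. The linear intensity of each of 24351 probe sets is as deposited by the authors, and the software, summarization, normalization and any log2 step behind it are not given in the sources used. Gene symbols came from the supplied platform annotation: 17709 probe sets had 1 symbol, 0 had several and 3739 transcript clusters were unnamed, giving 17687 genes. For 20 genes with several probe sets the brightest was used. The log2 of each value was fitted with limma 3.58.1 (R 4.3.3), without further normalization, as line plus treatment (3 residual degrees of freedom, 3.77 prior) or as a baseline, an OR21 term and an IM term per line (2 residual, 8.31 prior), on all 8 arrays. Fold bounds set the mean of the bright side against the mean background of the dim side. The fits were tested on simulated data. Members and lists were chosen with earlier results of these data known, and lists were written from textbook knowledge. All members were named, with up to 4 called genes per list and comparison, the largest that moved the same way in every pair, and the 3 genes most like each member above background on at least 4 arrays. Promoter sequences are RefSeq's, on GRCh38.p14.

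Alternatives included normalizing by quantiles, testing only brighter genes, moderation with a trend and robust fitting, log2(value + 16), the mean of probe sets, leaving out each array, and a 99th percentile background. Setting values below background to it was added after seeing the data.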

Additional observations from a re-analysis of the deposited data

Results flagged for a closer look

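SPI1 and CEBPE had effects of IM that differed between the lines by a limma test of the difference itself, over all genes. For SPI1 the difference, KBM5 minus K562, was 2.29 (log2, adjusted p = 0.00373), with a fall in both K562 pairs and a rise in both KBM5 pairs. SPI1 was below background on the K562 arrays with IM, so the size is not exact. For CEBPE it was -1.35 (adjusted p = 0.0404), with both K562 pairs above 0 and both KBM5 pairs below 0. CEBPE was above background on 1 of 8 arrays. No group had enough arrays to look for an outlying sample.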

How the results depend on the processing

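With values below background set to it, an alternative under which most genes carry the background on many arrays, more genes were called: 2899 instead of 1349 for IM over both lines, 10 instead of 0 for OR21 over both lines, 1582 instead of 35 for the combination, 3657 instead of 2368 for IM in K562, 246 instead of 16 for OR21 in K562, 996 instead of 96 for OR21 in KBM5, 3275 instead of 1796 for the line difference of IM and 545 instead of 18 for that of OR21. The members called were then 2 for IM over both lines (GFI1 and CEBPA), 1 for the combination (GFI1), 2 for IM in K562 (SPI1 and GFI1), 3 for the line difference of IM (SPI1, CEBPA and IRF8) and 2 for that of OR21 (IRF8 and GFI1), and calls were gained by RUNX1 for IM in KBM5 (adjusted p = 0.0451) and GFI1 for OR21 in KBM5 (0.0104). KLF4 with IM in KBM5 turned to -0.081 (limma adjusted p = 0.672) and CEBPE with OR21 in KBM5 to -0.18 (0.36), by the construction of that setting. CEBPD and CEBPE then lost their call between the lines (adjusted p = 0.106 each), and CEBPE that of the IM difference (0.285).

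Quantile normalization called 20 genes for the combination and 1 member (GFI1) for IM over both lines, and CEBPE lower with IM in KBM5 (-0.84, adjusted p = 0.0364). With the brighter genes alone, 22 genes were called for the combination, 4 and 62 for OR21 in K562 and KBM5 and 6 for its line difference, and 1 member each for IM over both lines (GFI1), OR21 in KBM5 (IRF8) and the line difference of IM (SPI1). A trend with robust moderation called 27, 243 and 43 genes for OR21 in K562, in KBM5 and for its line difference. With log2(value + 16) these were 5, 3 and 2, the combination had 0, the members called were 0 for OR21 in KBM5 and 1 for the line difference of IM (SPI1), and GFI1 with IM in KBM5 was not called (adjusted p = 0.0574). The cause of these changes was not tested. With a 99th percentile background, 5 members instead of 8 were above it on at least 1 array (SPI1, CEBPA, IRF8, GFI1 and RUNX1), of which RUNX1 alone on any K562 array.

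Leaving out each array in turn, the genes called ranged from 115 to 557 for IM over both lines, 0 to 2 for the combination, 454 to 3201 for IM in K562, 2722 to 3245 for IM in KBM5, 611 to 1804 for the line difference of IM, 4303 to 4976 for KBM5 against K562, 9 to 31 and 54 to 157 for OR21 in K562 and KBM5, and 6 to 52 for its line difference. The members called ranged from 0 to 1 for IM over both lines, 0 to 1 for IM in K562, 2 to 5 for IM in KBM5, 1 to 3 for the line difference of IM, 6 to 8 for KBM5 against K562 and 1 to 2 for OR21 in KBM5. Between the lines, CEBPE was not called without the combination array of either line (adjusted p = 0.0558), the other 6 calls held with each array left out, and KLF4 gained a call without the control array of either line (0.82, adjusted p = 0.0347) while below background on all arrays. A lone array left for a condition is assumed to vary like the others. Effects were fitted over pairs of arrays matched by line and the other drug, but no block by replicate number could be fitted, as the labels give no replicate numbers and each condition had 1 array.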
